A study of Homo sapiens with 12 samples.

Results

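Genes for the subunits of the proteasome were followed across RNA sequencing libraries of A172 glioblastoma cells that had received siRNAs against uc.110. The members were all protein-coding genes whose symbol names a subunit of the 20S core (PSMA1 to PSMA8, PSMB1 to PSMB7 and PSMB10), of the 19S cap (PSMC and PSMD genes), an activator (PSME1 to PSME4), the inhibitor PSMF1 or an assembly chaperone (PSMG1 to PSMG4). PSMB8 and PSMB9, the other interferon-induced catalytic subunits, were left out of the selection. Roles followed the symbol, so PSMD genes such as PSMD9 and PSMD10, which are chaperones of 19S assembly, were counted with the cap. The rule picked 45 genes by name and not by their values, although it was set with earlier results of these data known. Of these, 41 had a gene interval that could be used, out of 44363 usable gene intervals in the table.

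The proteasome degrades proteins that have been marked with ubiquitin, and glioma cells, like other dividing cells, depend on it. Its 20S core is a barrel of stacked rings: the outer rings of alpha subunits control the gate, and the inner rings of beta subunits hold the active sites. The 19S cap recognises ubiquitin chains, removes them and threads the protein into the core, with a ring of ATPase subunits (PSMC) doing the unfolding and non-ATPase subunits (PSMD) forming the lid and the rest of the base. Other caps can replace the 19S cap, and chaperones that are not part of the finished particle put the rings together. Under interferon, cells exchange the constitutive catalytic beta subunits for immunoproteasome subunits, of which PSMB10 is one.

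A172 is an established adherent line from a human glioblastoma, labelled wild type, and uc.110 is a stretch of genome on chromosome 2 (hg38, chr2:236162738-236162980) that is conserved without change between human and rodents. Cells were transfected with siRNA-1 against uc.110 (4 libraries), siRNA-2 against uc.110 (4 libraries) or a scrambled control siRNA (4 libraries). Each well of a 6-well plate received 3 µL of a 20 µM siRNA stock with 9 µL of Lipofectamine for 6 hours, and RNA was collected on day 2. All groups therefore carried an siRNA and the transfection reagent, came from 1 cell line, and had no untransfected counterpart among the libraries. Whether replicate libraries stem from different cultures is not stated in the labels, so p-values measure only the spread between these libraries, which may be technical.

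The libraries held 42776971 to 52945158 counts over the usable gene intervals. The targeted region itself was read 5 times in all in the siRNA-1 libraries (0 to 2 counts each), 7 times in the siRNA-2 libraries (0 to 4) and 11 times in the scrambled libraries (0 to 6), too few counts at this depth to detect a difference in uc.110. The following 3 libraries stood apart. The libraries siRNA-1 replicate 3 and siRNA-2 replicate 2 had counts in the largest ribosomal RNA interval equal to 5.99% and 3.19% of these totals, against 0.59% to 1.82% in the others, and scrambled replicate 1 alone had reads in 1556 intervals, against 86 to 167 for any other library. VIM, NES, CD44 and SOX9, markers of glioma and astrocyte lineages, averaged 133 to 2660 CPM (read counts scaled to library size) in scrambled cells, while AQP4 was at 0 and S100B, SLC1A3 and ALDH1L1 were below 1 CPM. The summed astrocyte and glioma markers were 2817 to 3039 CPM after siRNA-1, 3282 to 3385 CPM after siRNA-2 and 3786 to 4072 CPM in scrambled libraries. VIM alone averaged 1676, 1949 and 2660 CPM in these groups, while NES averaged 517, 367 and 447 CPM, CD44 588, 860 and 702 CPM, SOX9 124, 158 and 133 CPM, and GFAP 8.43, 7.53 and 6.33 CPM. No list of leukocyte, endothelial, neuronal, oligodendrocyte or epithelial markers summed to more than 32.0 CPM in any library.

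For 4 members no level could be measured. The intervals given for PSMB3 (a 20S beta subunit), PSMC4 (a 19S ATPase) and PSME1 and PSME2 (the subunits of the interferon-induced PA28 cap) ran over 36.0, 39.7, 23.7 and 23.7 Mb and covered 405, 814, 110 and 110 other protein-coding intervals, so their counts were not those of the genes. The remaining 41 members passed the filter on low counts in the table as a whole and were tested. In scrambled cells their level per kilobase of exon, taken from the mean CPM of 4 libraries, was highest for PSMB4 (555 CPM per kb), a non-catalytic beta subunit, and for PSMB7 (407 CPM per kb), the subunit with the trypsin-like site. PSMB10, the immunoproteasome counterpart of PSMB7, stood at 20.3 CPM per kb, rank 34 of 41. The lowest levels per kilobase were those of PSMG4 (8.23 CPM per kb), an assembly chaperone, and PSMD9 (6.9 CPM per kb), a chaperone of the 19S base. Counts cover whole intervals, with introns and stretches shared with other genes, so these values are not levels of the exons alone.

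After siRNA-1, most proteasome genes that changed were lower, and most changes were small. PSMA1, PSMA3, PSMA7, PSMD2 and PSME4 were among 17 members that fell, and PSMD9, PSMB10, PSMB5, PSMD6, PSMA5 and PSMD12 were the 6 that rose. The remaining 18 of 41 did not pass the test. The counts come from edgeR's quasi-likelihood test with Benjamini-Hochberg adjustment over all 24951 genes tested and a threshold of 0.05. With 23 members called, the share was 56.1%, against 53.4% of all genes tested and 73.9% of genes of the members' abundance. Split by direction, 41.5% of members fell and 14.6% rose, against 24.8% and 28.5% of all genes, and against 34.6% and 39.4% of the 8326 genes in the members' range of abundance (average log2 CPM of 4.55 to 9.51). The median log2 fold change was -0.05 over members and 0.01 over all genes, and the median size of the change was 0.12 over members and 0.22 over genes of their abundance. Without the 3 libraries that stood apart, 19 members fell and 5 rose. In bulk libraries scaled to their totals, fewer cells that express a gene and less of its RNA per cell cannot be told apart.

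After siRNA-2, 22 of 41 members fell, 5 rose and 14 did not pass. Among those that fell were 7 of 8 alpha subunits and 5 of 7 beta subunits, and those that rose were PSMD9, PSMB10, PSMG1, PSMD6 and PSMB5, the last a call that did not hold in 12 of 20 alternative analyses. The share called was 65.9% by the same edgeR test, against 56.0% of all genes and 76.3% of genes of their abundance. Of the members, 53.7% fell and 12.2% rose, against 26.1% and 29.9% of all genes and 38.7% and 37.6% of genes of their abundance. The median log2 fold change was -0.13 over members and 0.01 over all genes, with a median size of 0.18 over members and 0.24 over genes of their abundance. Leaving out the 3 libraries that stood apart gave 23 members lower and 4 higher.

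The siRNA-1 and siRNA-2 comparisons share the same scrambled libraries, so their values are given side by side and not as independent results. A log2 fold change of 0.5 or more in size was seen for 2 members after siRNA-1, PSMA8 and PSMD9, against 27.5% of all genes and 16.0% of genes of the members' abundance. After siRNA-2 it was seen for 5, which were PSMA3, PSMA8, PSMB10, PSMD9 and PSME4, against 30.6% of all genes and 19.5% of genes of their abundance. All 4 siRNA-1 libraries lay below all 4 scrambled libraries for 16 members and above them for 7, to be read against 22.2% and 25.2% of all genes and 31.9% and 36.2% of genes of their abundance. For siRNA-2 these counts were 24 and 4, against 24.0% and 27.7% of all genes and 37.0% and 36.6% of genes of their abundance.

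**Figure D1:**
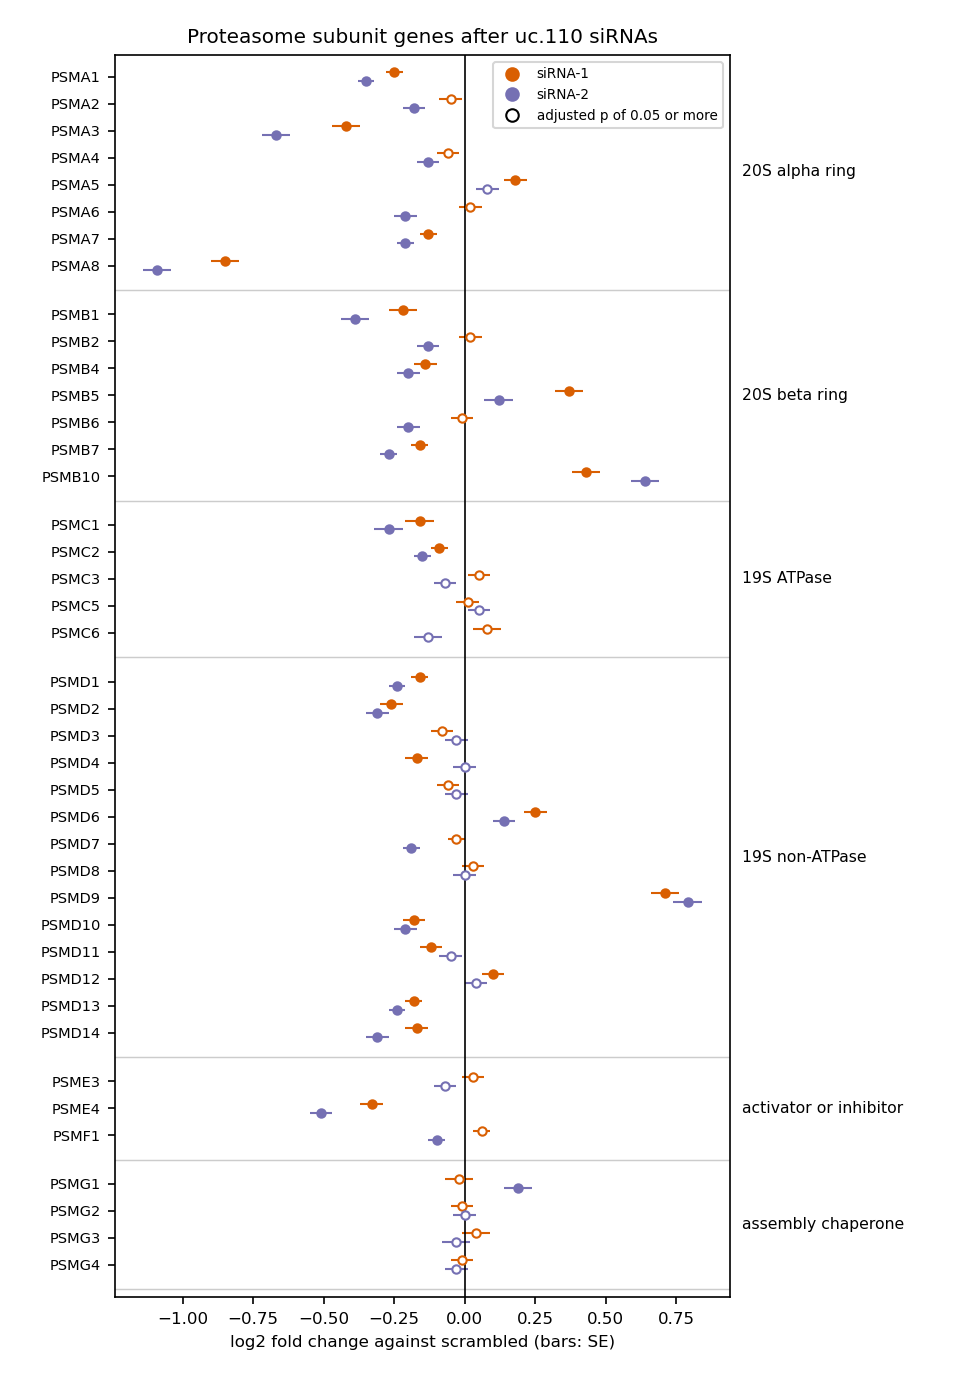
Log2 fold changes of the 41 measured proteasome genes after siRNA-1 (orange) and siRNA-2 (violet) against scrambled siRNA, by role in the particle; points are edgeR estimates, bars are standard errors, and open points have an adjusted p of 0.05 or more. Most filled points lie left of 0, with PSMA8 and PSMA3 farthest to the left and PSMD9 and PSMB10 farthest to the right.

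In the alpha ring, which forms the gated ends of the core, PSMA1, PSMA3, PSMA7 and PSMA8 fell with both siRNAs, and PSMA2, PSMA4 and PSMA6 fell with siRNA-2. Of 8 genes, 4 fell and 1 rose after siRNA-1, and 7 fell after siRNA-2, where PSMA5 did not pass. PSMA3, the alpha7 subunit, had 48.7, 48.5, 44.0 and 48.9 CPM after siRNA-1 and 38.4, 40.1, 41.9 and 38.7 CPM after siRNA-2, against 59.7, 60.3, 66.6 and 67.1 CPM in scrambled cells. Each siRNA-2 library was below each siRNA-1 library, and each of those was below the scrambled libraries. The log2 fold change was -0.42 ± 0.05 (SE, n = 4 per group; edgeR adjusted p = 6.09e-08) after siRNA-1 and -0.67 ± 0.05 (edgeR adjusted p = 1.09e-11) after siRNA-2. The PSMA3 interval (chr14:58244806-58272009, plus strand) overlaps that of PSMA3-AS1 on the other strand, whose reads amount to 80.06% of those of PSMA3 and which changed by -0.39 and -0.64. Reads in the shared stretch cannot be assigned to one of the pair unless counting used strand, a setting for which the sources used here give nothing. PSMC2 and SLC26A5, which also overlap on opposite strands, averaged 276 and 269 CPM in scrambled cells. The use of strand was not tested. PSMA1, the alpha6 subunit, fell by 0.25 and 0.35 on the log2 scale, and PSMA7, the alpha4 subunit, by 0.13 and 0.21. PSMA2, PSMA4 and PSMA6 (the alpha2, alpha3 and alpha1 subunits) had log2 fold changes of -0.05, -0.06 and 0.02 after siRNA-1, which did not pass, and fell by 0.18, 0.13 and 0.21 after siRNA-2. Without scrambled replicate 1, PSMA4 also passed after siRNA-1 (adjusted p = 0.0381). PSMA5, the alpha5 subunit, rose by 0.18 after siRNA-1 (edgeR adjusted p = 0.000769), and its log2 fold change after siRNA-2 was 0.08 (edgeR adjusted p = 0.1). That second value passed when siRNA-2 replicate 2 (0.0375) or scrambled replicate 4 (0.0437) was left out.

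PSMA8, the alpha4-type subunit of the testis proteasome, had the lowest fold changes of all members, but its counts may not be its own. It had 58.2, 57.5, 53.4 and 55.1 CPM after siRNA-1 and 43.9, 47.5, 49.6 and 49.4 CPM after siRNA-2, against 95.5, 101, 101 and 108 CPM in scrambled cells, with log2 fold changes of -0.85 ± 0.05 and -1.09 ± 0.05 (edgeR adjusted p = 3.73e-14 and 3.95e-16). Its interval (chr18:26133848-26193355, plus strand) also holds a processed pseudogene of an unrelated gene, and what part reads from that copy have in the PSMA8 counts was not tested. Without PSMA8, 16 of 40 members fell and 6 rose after siRNA-1, and 21 fell and 5 rose after siRNA-2.

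In the beta ring, the members that rose, PSMB10 and PSMB5, both carry active sites, and catalytic as well as structural subunits were among those that fell. After siRNA-1, 3 of 7 measured genes fell and 2 rose, and after siRNA-2, 5 fell and 2 rose. PSMB10, the interferon-inducible beta2i subunit that takes the place of PSMB7 in the immunoproteasome, had 31.4, 32.9, 33.1 and 35.7 CPM after siRNA-1 and 39.7, 36.8, 39.6 and 38.0 CPM after siRNA-2, against 26.4, 23.3, 25.3 and 24.1 CPM in scrambled cells. The 3 groups did not overlap. The log2 fold change was 0.43 ± 0.05 (edgeR adjusted p = 1.12e-07) after siRNA-1 and 0.64 ± 0.05 (edgeR adjusted p = 7.34e-11) after siRNA-2. No other usable interval overlaps that of PSMB10 (chr16:67934505-67937971, minus strand), and intervals that were set aside were not searched. GENCODE places another gene, AC040162.1, partly over PSMB10 on the same strand. PSMB7, the constitutive counterpart of PSMB10, fell by 0.16 and 0.27 on the log2 scale. Its interval overlaps that of NEK6 on the other strand, whose reads amount to 47.48% of its own. NEK6 averaged 169 CPM after siRNA-1 and 158 CPM after siRNA-2, against 188 CPM in scrambled cells. LOC100129034, inside the PSMB7 interval on the other strand with 31.83% as many reads, averaged 115, 106 and 124 CPM in these groups. What part shared reads have in the PSMB7 values was not tested.

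PSMB5, the constitutive chymotrypsin-like subunit and the main target of bortezomib, had 98.7, 103, 99.1 and 99.3 CPM after siRNA-1 and 82.4, 78.8, 87.9 and 87.1 CPM after siRNA-2, against 74.3, 71.5, 81.5 and 82.9 CPM in scrambled cells. All siRNA-1 libraries were above the others, while the siRNA-2 and scrambled libraries overlapped. It rose by 0.37 ± 0.05 on the log2 scale (edgeR adjusted p = 1.76e-07) after siRNA-1, with a log2 fold change of 0.12 ± 0.05 (edgeR adjusted p = 0.0334) after siRNA-2. The siRNA-2 call did not hold in 12 of 20 alternative analyses: the adjusted p was 0.244 without scrambled replicate 2, 0.241 without scrambled replicate 1, 0.115 without siRNA-2 replicate 3, 0.106 without siRNA-2 replicate 4, 0.092 without siRNA-1 replicate 3 and 0.0881 without siRNA-1 replicate 2. PSMB1, the structural beta6 subunit, fell by 0.22 and 0.39, and PSMB4, the structural beta7 subunit that completes the ring, by 0.14 and 0.20. PSMB2 and PSMB6, a structural and the caspase-like subunit, had log2 fold changes of 0.02 and -0.01 after siRNA-1, where they did not pass, and fell by 0.13 and 0.20 after siRNA-2.

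The 250 bases before the RefSeq start of PSMB10 (GRCh38.p14, chr16:67936851-67937100, minus strand, written 5′ to 3′ on the gene's strand) are shown because PSMB10 is the interferon-inducible member that was measured; capitals mark an interferon response pair (GAAA, then any 2 bases, then GAAA), 21 to 12 bases before the start.
PSMB10 promoter: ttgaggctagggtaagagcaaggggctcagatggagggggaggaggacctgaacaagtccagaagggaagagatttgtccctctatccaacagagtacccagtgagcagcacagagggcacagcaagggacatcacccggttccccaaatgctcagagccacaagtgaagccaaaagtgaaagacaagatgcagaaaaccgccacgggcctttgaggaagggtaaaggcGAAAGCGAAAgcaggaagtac

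In the 19S cap, the ATPases moved little and the non-ATPases moved in both directions. Of 5 measured ATPases, 2 fell with each siRNA and the other 3 did not pass. PSMC1, the Rpt2 subunit whose tail opens the gate of the core, had 46.4, 50.4, 45.5 and 46.5 CPM after siRNA-1 and 41.6, 44.0, 45.5 and 43.3 CPM after siRNA-2, against 50.5, 48.7, 55.0 and 56.8 CPM in scrambled cells. One siRNA-1 library reached into the scrambled range and no siRNA-2 library did. The log2 fold change was -0.16 ± 0.05 (edgeR adjusted p = 0.00829) after siRNA-1 and -0.27 ± 0.05 (edgeR adjusted p = 3.71e-05) after siRNA-2. PSMC1 is the member with the most processed copies, 13 pseudogenes bearing its name, and NRDE2, which overlaps it on the other strand with 96.7% as many reads, had log2 fold changes of -0.02 and -0.09 that did not pass. PSMC2, the Rpt1 subunit, fell by 0.09 after siRNA-1, a call not made without siRNA-1 replicate 1 (adjusted p = 0.0617), scrambled replicate 3 (0.0731) or scrambled replicate 4 (0.106), and by 0.15 after siRNA-2. SLC26A5 overlaps PSMC2 on the other strand with 97.29% as many reads. SLC26A5 averaged 252 CPM after siRNA-1, 241 CPM after siRNA-2 and 269 CPM in scrambled cells, against 259, 248 and 276 CPM for PSMC2. PSMC3, PSMC5 and PSMC6 (Rpt5, Rpt6 and Rpt4) did not pass with either siRNA, with log2 fold changes of -0.13 to 0.08. However, PSMC3 passed after siRNA-2 without siRNA-1 replicate 3 (0.0427) or siRNA-1 replicate 2 (0.0498), which enter the shared estimate of the spread. FTSJ3 overlaps PSMC5 on the other strand with 37.4% as many reads. It averaged 106 CPM after siRNA-1, 99.7 CPM after siRNA-2 and 83.3 CPM in scrambled cells. LOC107984986 lies inside the PSMC5 interval on the other strand with 15.97% as many reads. What part shared reads have in the PSMC5 values was not tested. For PSMC6 the log2 fold change after siRNA-2 was -0.13 (edgeR adjusted p = 0.0529), and it passed in 11 of 20 alternative analyses, among them those without scrambled replicate 1 (0.00771), scrambled replicate 2 (0.0207), siRNA-1 replicate 2 (0.0286) or siRNA-1 replicate 3 (0.0373).

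Among the 14 non-ATPase genes, 7 fell and 3 rose after siRNA-1, and 6 fell and 2 rose after siRNA-2. PSMD9, the p27 chaperone that escorts ATPases during assembly of the base and is absent from the finished cap, had the highest fold changes of all members. It had 31.0, 31.0, 31.5 and 31.9 CPM after siRNA-1 and 33.3, 31.6, 34.6 and 33.2 CPM after siRNA-2, against 18.8, 17.8, 20.1 and 20.2 CPM in scrambled cells. Both siRNA groups lay wholly above the scrambled libraries, with log2 fold changes of 0.71 ± 0.05 and 0.79 ± 0.05 (edgeR adjusted p = 7.89e-12 and 7.84e-13). The PSMD9 interval (chr12:121888732-121918297, plus strand) shares 239 bases with that of HPD on the other strand, which rose by 0.68 and 0.83 and whose reads amount to 36.18% of those of PSMD9. How many reads the pair shares was not tested.

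PSMD9 is shown with the 250 bases before its RefSeq start (GRCh38.p14, chr12:121888540-121888789, plus strand) because its rise was the largest; capitals mark antioxidant response elements (ARE, TGACNNNGC, on either strand), 149 to 141 and 102 to 94 bases before the start.
PSMD9 promoter: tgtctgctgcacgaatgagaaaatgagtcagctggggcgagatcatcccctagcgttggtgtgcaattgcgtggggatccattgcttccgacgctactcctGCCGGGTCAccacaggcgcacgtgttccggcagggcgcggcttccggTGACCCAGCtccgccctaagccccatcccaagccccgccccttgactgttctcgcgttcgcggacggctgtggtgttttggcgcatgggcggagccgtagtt

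PSMD6 (Rpn7), a lid subunit, rose by 0.25 and 0.14 on the log2 scale. PSMD6-AS2, which overlaps it on the other strand with 28.34% as many reads, rose by 0.35 and 0.29. PSMD12 (Rpn5) rose by 0.10 after siRNA-1, a call lost in 8 of 20 alternative analyses, among them those without siRNA-1 replicate 3 (adjusted p = 0.224), scrambled replicate 1 (0.073), scrambled replicate 2 (0.0652) or siRNA-1 replicate 2 (0.0558). Falls came from the large scaffolds PSMD1 (Rpn2; -0.16 and -0.24) and PSMD2 (Rpn1; -0.26 and -0.31), and from the deubiquitinase PSMD14 (Rpn11; -0.17 and -0.31). PSMD13 (Rpn9) fell by 0.18 and 0.24, and PSMD10 (gankyrin), another chaperone of the base, by 0.18 and 0.21. The PSMD13 interval lies within that of LOC101059906 on the same strand. It also overlaps that of SIRT3 on the other strand, which has 113.8% as many reads. ATG4A overlaps PSMD10 on the other strand with 43.88% as many reads. PSMD11 (Rpn6), which clamps the lid to the core, fell by 0.12 after siRNA-1 and had a log2 fold change of -0.05 (edgeR adjusted p = 0.221) after siRNA-2.

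PSMD4 (Rpn10), a ubiquitin receptor, separated the siRNAs. It had 294, 286, 296 and 301 CPM after siRNA-1 and 348, 319, 333 and 326 CPM after siRNA-2, against 347, 325, 330 and 321 CPM in scrambled cells. The siRNA-1 libraries lay below the others, and the siRNA-2 and scrambled libraries overlapped. The log2 fold change was -0.17 ± 0.04 (edgeR adjusted p = 0.000342) after siRNA-1 and 0.00 ± 0.04 (edgeR adjusted p = 0.983) after siRNA-2. Conversely PSMD7 (Rpn8), the partner of PSMD14, had a log2 fold change of -0.03 (edgeR adjusted p = 0.438) after siRNA-1 and fell by 0.19 after siRNA-2. PSMD3, PSMD5 and PSMD8 did not pass with either siRNA, with log2 fold changes of -0.08 to 0.03, and PSMD3 after siRNA-1 (edgeR adjusted p = 0.0638) passed in 10 of 20 alternative analyses, including those without scrambled replicate 1 (0.0106), siRNA-1 replicate 4 (0.0151) or siRNA-1 replicate 3 (0.0311). PSMD5 passed after siRNA-1 without scrambled replicate 1 (0.0141).

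Of the alternative caps, PSME4 (PA200), a nuclear activator, fell most. It had 87.4, 85.8, 86.6 and 87.6 CPM after siRNA-1 and 71.9, 77.6, 81.2 and 77.1 CPM after siRNA-2, against 105, 112, 108 and 113 CPM in scrambled cells. The 3 groups did not overlap, and the log2 fold changes were -0.33 ± 0.04 and -0.51 ± 0.04 (edgeR adjusted p = 5.22e-08 and 2.51e-11). ACYP2, which overlaps PSME4 on the other strand with 10.7% as many reads, fell by 0.46 and 0.48. PSME3 (PA28 gamma), the nuclear PA28 subunit, had log2 fold changes of 0.03 and -0.07 (edgeR adjusted p = 0.45 and 0.0814), and the second passed without scrambled replicate 1 (0.013), siRNA-1 replicate 2 (0.0276) or siRNA-1 replicate 3 (0.039). PSMF1 (PI31), named as an inhibitor of the core, had a log2 fold change of 0.06 after siRNA-1 and fell by 0.10 after siRNA-2 (edgeR adjusted p = 0.0146, and 0.0695 without siRNA-2 replicate 2).

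PSME4 is shown with the 250 bases before its RefSeq start (GRCh38.p14, chr2:53970994-53971243, minus strand, written on the gene's strand) as a member that fell and holds an ARE, in capitals, 34 to 26 bases before the start.
PSME4 promoter: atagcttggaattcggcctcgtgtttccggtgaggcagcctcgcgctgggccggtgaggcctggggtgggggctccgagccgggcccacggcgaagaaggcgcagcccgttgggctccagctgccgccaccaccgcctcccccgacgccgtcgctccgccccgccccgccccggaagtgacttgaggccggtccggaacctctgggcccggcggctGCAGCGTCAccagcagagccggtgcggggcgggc

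The assembly chaperones of the core were close to scrambled. None of the 4 passed after siRNA-1 by edgeR, by DESeq2 or at an unadjusted p under 0.05, and of the 4 only PSMG1, which with PSMG2 starts the assembly of the alpha ring, passed after siRNA-2. PSMG1 had 37.9, 38.4, 37.6 and 38.4 CPM after siRNA-1 and 44.8, 41.4, 45.8 and 44.4 CPM after siRNA-2, against 40.0, 35.9, 38.3 and 40.0 CPM in scrambled cells. The siRNA-2 libraries lay above the others. Its log2 fold change was -0.02 ± 0.05 (edgeR adjusted p = 0.768) after siRNA-1 and 0.19 ± 0.05 (edgeR adjusted p = 0.000708) after siRNA-2. PSMG3, of the PSMG3-PSMG4 pair that acts after PSMG1 and PSMG2, had 35.2, 32.3, 32.2 and 34.1 CPM after siRNA-1 and 31.6, 29.7, 33.0 and 32.5 CPM after siRNA-2, against 30.3, 31.1, 35.8 and 32.4 CPM in scrambled cells, with overlapping groups and log2 fold changes of 0.04 and -0.03 (edgeR adjusted p = 0.511 and 0.615). PSMG2 and PSMG4 had log2 fold changes of -0.03 to 0.00 with either siRNA. SLC22A23 overlaps PSMG4 on the other strand with 94.35% as many reads. SPIRE1 and CEP76 overlap PSMG2 on the other strand with 83.56% and 26.45% as many reads. What part shared reads have in the values of PSMG2 and PSMG4 was not tested.

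**Figure D2:**
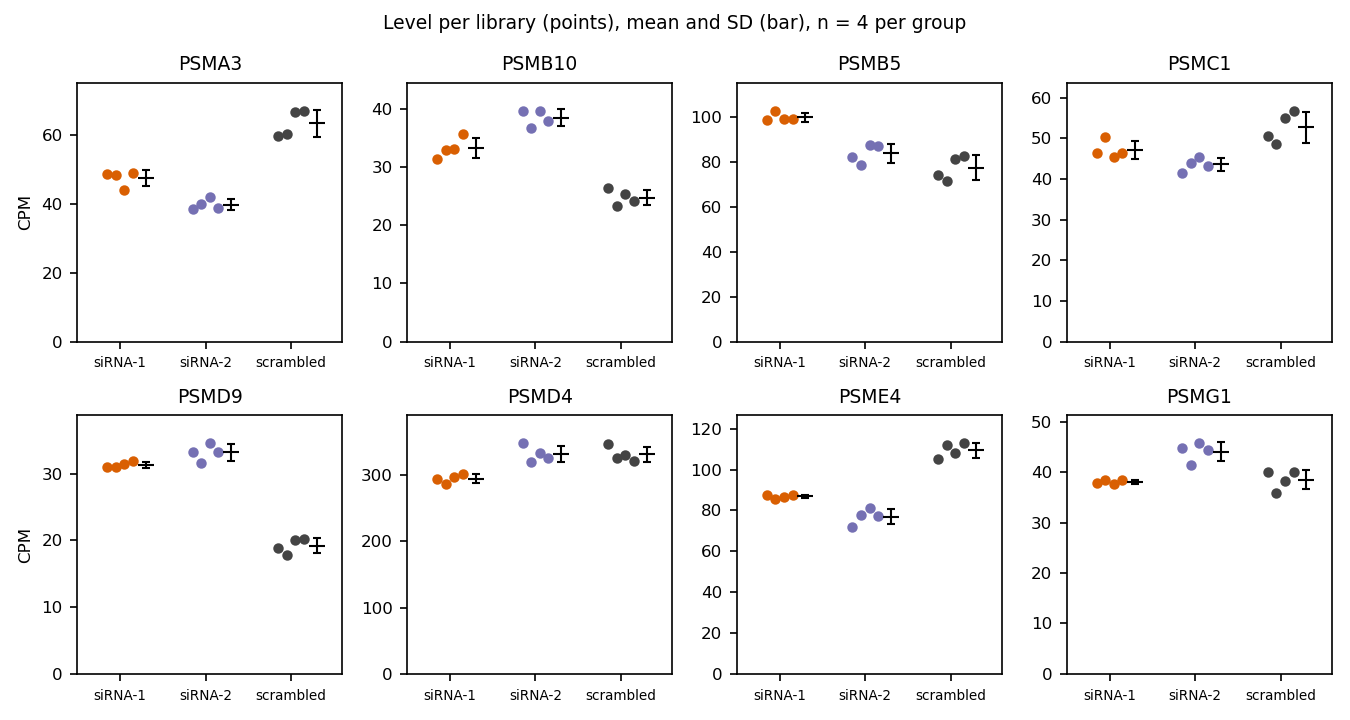
CPM of 8 proteasome genes in each library (points), with the mean and SD of 4 libraries per group (bars), for siRNA-1, siRNA-2 and scrambled cells; each axis starts at 0. PSMB10 and PSMD9 lie above scrambled with both siRNAs, PSMA3 and PSME4 lie below, PSMD4 is low with siRNA-1, and PSMG1 is high with siRNA-2.

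Summed by role, the counts show how the members add up, with abundant and long genes weighing most. The alpha ring without PSMA8 summed to 1162 to 1227 CPM after siRNA-1 and 1075 to 1129 CPM after siRNA-2, against 1251 to 1294 CPM in scrambled libraries, a mean of 93.7% and 86.9% of scrambled. The beta ring summed to 94.4% and 87.7% of scrambled, the ATPases to 99.1% and 95.2%, and the non-ATPases to 91.6% and 90.8%. Activators and inhibitor came to 97.0% and 88.3%, and the PSMG chaperones to 99.9% and 102%. The non-ATPase sum includes PSMD9 and PSMD10, chaperones of the base that were grouped by symbol. All siRNA-2 libraries were below all scrambled libraries for each of these sums except that of the chaperones, while the siRNA-1 libraries did so for the alpha ring and the non-ATPases only among these 6. Over all 41 members the sum was 6814 to 7136 CPM after siRNA-1 and 6466 to 6791 CPM after siRNA-2, against 7293 to 7525 CPM in scrambled libraries, or 93.4% and 89.6% of the scrambled mean.

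**Figure D3:**
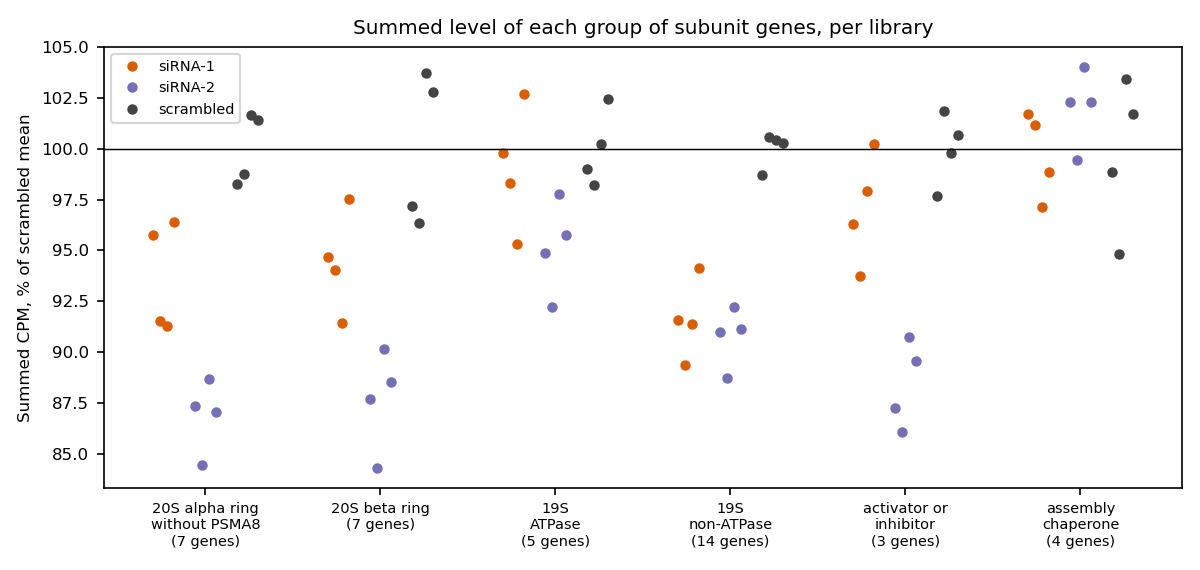
Summed CPM of each group of proteasome genes in each library, as a percentage of the scrambled mean (horizontal line at 100); each point is a library and the vertical axis does not start at 0. The alpha ring, beta ring and activator sums run in steps on average, lowest with siRNA-2 and highest with scrambled. For the beta ring and the activators, siRNA-1 and scrambled libraries overlap. The PSMG chaperone sums of all groups overlap.

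Set directly against siRNA-1, siRNA-2 gave lower levels of most members that differed. Of 41 members, 18 were lower with siRNA-2, 3 were higher and 20 did not pass by the edgeR test, 51.2% called against 32.6% of all genes and 51.5% of genes of the members' abundance. The share lower was 43.9%, against 16.8% of all genes and 31.1% of genes of the members' abundance, and the share higher was 7.32%, against 15.7% and 20.4%. The core accounted for 10 of the 18: 5 of 8 alpha and 5 of 7 beta subunits were lower with siRNA-2. PSMA6, the alpha1 subunit, had 77.2, 72.6, 81.1 and 79.4 CPM after siRNA-2 and 93.3, 89.6, 87.3 and 93.7 CPM after siRNA-1. Its log2 difference was -0.23 ± 0.04 (edgeR adjusted p = 4.51e-05). The PSMA6 interval shares 3276 bases with that of PRORP on the same strand, which has 26.62% as many reads. PRORP averaged 21.7 CPM after siRNA-2 and 22.8 CPM after siRNA-1. GENCODE also places AL121594.1 partly over PSMA6 on the same strand. What part shared reads have in the PSMA6 values was not tested. PSMA3 differed by -0.26 ± 0.05, PSMB5 by -0.25 ± 0.05 and PSMA8 by -0.23 ± 0.05. Higher with siRNA-2 were PSMB10 (0.21 ± 0.05), PSMG1 (0.21 ± 0.05) and PSMD4 (0.17 ± 0.04). No member's difference reached 0.5 on the log2 scale, a size seen for 13.7% of all genes and 3.52% of genes of the members' abundance. The PSMD9 difference was 0.08 ± 0.05 and did not pass (edgeR adjusted p = 0.221).

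The lower count between the siRNAs was 13 without siRNA-2 replicate 2 and 14 with the 3 libraries that stood apart left out together. For 6 members the difference lost its call when siRNA-1 replicate 1, 2, 3 or 4 or siRNA-2 replicate 2 or 4 was left out. These members, some with each library, were PSMA1, PSMB1, PSMB7, PSMC3, PSMD6 and PSME3, with edgeR adjusted p of 0.0502 to 0.0975 over those analyses. PSMA5 passed without siRNA-1 replicate 2 (0.0378).

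Genes around the proteasome were read from the same edgeR test. Of 12 partners without a PSM name, 3 rose and 3 fell after siRNA-1 (median log2 fold change 0.01), and 2 rose and 5 fell after siRNA-2 (median -0.07), against a median of 0.01 over all genes in each comparison. Of the 12 partners, 6 and 7 were called, against 53.4% and 56.0% of all genes and 73.9% and 76.3% of genes of the members' abundance. These shares are the background for the lists that follow as well. UBE3C, a ubiquitin ligase that extends chains on proteasome-bound substrates, fell by 0.20 and 0.46, and ECPAS, a scaffold that binds the 26S particle, fell by 0.34 and 0.27. SEM1, the smallest subunit of the cap, fell by 0.14 and 0.27, and AKIRIN2, which carries proteasomes into the nucleus, rose by 0.30 and 0.31.

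Of 7 genes that act in the transcription of proteasome genes, 3 rose and 3 fell after siRNA-1 (median 0.03), and 1 rose and 3 fell after siRNA-2 (median -0.05), with 85.7% and 57.1% called. DDI2, the protease that activates the factor NFE2L1 when proteasome activity is short, had 17.6, 17.1, 15.7 and 16.1 CPM after siRNA-1 and 13.9, 14.5, 15.8 and 14.0 CPM after siRNA-2, against 26.4, 27.4, 26.7 and 29.1 CPM in scrambled cells. Its libraries did not overlap those of scrambled cells, and it fell by 0.72 ± 0.06 and 0.91 ± 0.06 (edgeR adjusted p = 4.37e-11 and 4.43e-13). NFE2L1 itself, named here after its values were seen, had log2 fold changes of 0.08 ± 0.03 (edgeR adjusted p = 0.0408) and 0.03 ± 0.03 (edgeR adjusted p = 0.448). NFE2L2, the related stress factor, fell by 0.29 and 0.21. Of the small MAF partners, MAFF rose by 0.86 and 0.96 and MAFG fell by 0.16 and 0.26. MAFK, also named after its values were seen, rose by 0.28 after siRNA-1 (edgeR adjusted p = 4.99e-06) and did not pass after siRNA-2 (edgeR adjusted p = 0.944).

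Of 9 unfoldase and ubiquitin shuttle genes, 4 rose and 4 fell after siRNA-1 (median -0.03), and 2 rose and 3 fell after siRNA-2 (median 0.04), with 88.9% and 55.6% called. VCP, the p97 unfoldase, fell by 0.26 and 0.32, and its cofactor UFD1 by 0.18 and 0.33, while the other cofactor NPLOC4 rose by 0.20 and 0.29. Of 6 genes for ubiquitin and its activating enzymes, 1 rose and 2 fell after siRNA-1 (median 0.01), and 2 rose and 2 fell after siRNA-2 (median -0.08), so that 3 and 4 of 6 were called. RPS27A, a ubiquitin fusion gene that also encodes a ribosomal protein, fell by 0.45 and 0.79. UBB, a polyubiquitin gene, rose by 0.28 and 0.11 (edgeR adjusted p = 9.14e-06 and 0.0499).

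Of 6 interferon and antigen-processing genes, 5 were tested (B2M was not), with 2 higher and 2 lower after siRNA-1 (median 0.07) and 3 higher and 2 lower after siRNA-2 (median 0.26). With 5 genes, the share called was 80.0% and 100%. NLRC5, the activator of MHC class I genes, had 39.4, 39.6, 37.9 and 37.2 CPM after siRNA-1 and 48.3, 51.3, 51.7 and 51.5 CPM after siRNA-2, against 22.7, 18.0, 19.3 and 18.1 CPM in scrambled cells. As for PSMB10, the 3 groups did not overlap and siRNA-2 was highest. ERAP1 and ERAP2, which trim the peptides made by the proteasome, fell by 0.55 and 0.42 and by 0.57 and 0.47.

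Promoters from RefSeq (GRCh38.p14, 250 bases before to 50 after each start) were matched for 39 of the 45 members and searched on both strands for 4 motifs. The ARE (TGACNNNGC), the letters that NFE2L1 and NFE2L2 with small MAF partners bind, was found for 14 of 39 members (35.9%), against 16.1% of all 27305 genes in the table. The members with it were PSMA4, PSMB3, PSMC4, PSMC5, PSMD1, PSMD3, PSMD5, PSMD9, PSMD12, PSME1, PSME2, PSME4, PSMG1 and PSMG2. Among them, PSMD9 and PSMD12 rose and PSMD1 and PSME4 fell after siRNA-1, and no other measured one passed. After siRNA-2, PSMD9 and PSMG1 rose, PSMA4, PSMD1 and PSME4 fell, and the other measured ones did not pass. The interferon response pair of GAAA half-sites was found for 6 members (15.4%), against 4.38% of genes: PSMA4, PSMB4, PSMB10, PSME1, PSME2 and PSMG4. Of these, PSMB10 rose with both siRNAs, PSMB4 fell with both, PSMA4 fell with siRNA-2, and PSMG4 passed with neither. The GAS letters (TTCNNNGAA) of STAT dimers were found for 7 members (17.9%), against 9.38% of genes, and the CCAAT box for 18 (46.2%), against 39.7%. The motifs were searched one by one and may share bases, and a match is a description of the sequence and not of binding.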

How the data were processed

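RNA sequencing of 12 A172 libraries was analysed from 1 deposited table of raw whole-number read counts per gene interval (hg38, per the submitters' processing notes, which name Salmon; for the counter and the use of strand: not given in the sources used here). Each count covers a whole interval, introns included, so overlapping genes can share reads. Columns were mapped by their labels. Ultraconserved and random regions (962), intervals that overshoot the gene they are named for by over 100 kb (1960), older names, duplicates and ribosomal RNA were set aside, leaving 44363.

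edgeR 4.0.16 in R 4.3.3 was used, with TMM scaling, filterByExpr (minimum count 10, total 15) and a robust quasi-likelihood fit of the 12 libraries by group alone. Tests were two-sided, with Benjamini-Hochberg adjustment over 24951 genes and a threshold of 0.05; SE is the log2 fold change divided by the root of F, and CPM uses TMM-scaled library sizes. Values in every library are given for PSMB10, for the 3 highest and 3 lowest called members of each comparison and for the member with the smallest p of each role with each siRNA; other lists give up to 4 genes by smallest p, some of which are not reported here. PSMA6, NFE2L1 and MAFK were added after their values were seen. Members and lists were chosen with earlier results of these data known. In a test on simulated data for siRNA-1 against scrambled with 24601 genes, 38 of 50 genes changed 1.25-fold, 48 of 50 changed 1.5-fold and 8 of 24401 unchanged genes were called. Few genes were changed there, whereas 53.4% were called in the data. No change below 1.25-fold was planted, so recovery of smaller changes was not measured. PSMD9 had the fewest reads of the members described by library, 826 in 1 library. Alternatives were DESeq2 1.42.0, its size factors, other filters, protein-coding intervals only, only the groups compared, a replicate block, and leaving out each library or 3 together. Promoters and motifs were read from RefSeq tables with Python 3.11.15.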

Additional observations from a re-analysis of the deposited data

Results flagged for a closer look

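Within each group of 4 libraries, the highest or lowest library of each member was compared with its neighbours by Dixon's ratio. Of 123 such checks, 5 passed its critical value, close to the 1 in 20 that chance gives. PSMA3 was at 44.0 CPM in siRNA-1 replicate 3, against 48.5 to 48.9 CPM in the other siRNA-1 libraries. PSMA4 was at 156 CPM in siRNA-2 replicate 2, against 168 to 169 CPM in the other siRNA-2 libraries, and PSMB7 was at 319 CPM in the same library, against 334 to 337 CPM. PSMB5 was at 103 CPM in siRNA-1 replicate 2, against 98.7 to 99.3 CPM in the other siRNA-1 libraries. PSMD1 was at 237 CPM in siRNA-1 replicate 4, against 225 CPM in the other siRNA-1 libraries. Of these libraries, siRNA-1 replicate 3 and siRNA-2 replicate 2, are also those with the highest share of counts in the largest ribosomal RNA interval; its part in these values was not tested.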

How the results depend on the processing

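Over 20 alternative analyses the number of members called ran from 22 to 26 after siRNA-1 (16 to 21 lower, 5 to 6 higher), from 26 to 30 after siRNA-2 (21 to 26 lower, 4 to 6 higher) and from 16 to 22 between the siRNAs (13 to 19 lower, 3 to 4 higher), each within 1.5 times the reported count. With protein-coding intervals fitted alone, 21 members were lower and 5 higher after siRNA-1, and 25 lower and 4 higher after siRNA-2. Among genes of the members' abundance in that fit, 38.9% were lower and 36.6% higher after siRNA-1, and 40.9% and 36.6% after siRNA-2. Of 2460 values for single members, 2363 kept their side of the threshold, 49 lost their call, 48 gained one and 0 of the called values reversed. A change of sign was not counted for values that were not called in the reported fit. The calls that changed concerned 6 members after siRNA-1, 7 after siRNA-2 and 9 between the siRNAs, and beyond those named in the report they were PSMA2 after siRNA-1, PSMD11 after siRNA-2, and PSMD1 and PSMD11 between the siRNAs, each in 1 analysis; the cause was not tested. The analysis without 3 libraries was chosen after seeing the data. The largest shift of the median over all genes was to -0.06 and -0.05, with no filter on low counts. With replicate numbers as a block, the pairing gave 17 members lower and 6 higher after siRNA-1, 22 and 5 after siRNA-2, and 19 and 3 between the siRNAs. Same-numbered libraries correlated at -0.116 to 0.0925 in their deviations from group means, so no shared deviation was seen. Whether they share a day or culture is not stated in the labels, and these correlations cannot settle it. No member had several rows, so an alternative with the longest interval gave no value. Members that overlap another usable interval (20) gave 10 lower and 2 higher after siRNA-1 and 13 and 2 after siRNA-2. The 21 that overlap no other usable interval gave 7 and 4, and 9 and 3.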
